A study of Mus musculus with 3 samples.

Results

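Autophagy is the route by which a cell wraps cytoplasm, damaged organelles or microbes in a double membrane, the autophagosome, and delivers them to the lysosome. A kinase complex around ULK1 starts the process, a lipid kinase complex around Beclin 1 marks the membrane, ATG9 and ATG2 supply it with lipid, and a pair of ubiquitin-like conjugation systems attaches ATG8 proteins (LC3 and GABARAP) to it. Receptors such as p62 tie the cargo to ATG8, and the transcription factors TFEB, TFE3 and MITF switch on autophagy and lysosome genes by binding E-box sequences in promoters. In macrophages this route clears intracellular bacteria and damaged mitochondria. Levels of 40 genes of these groups, chosen by symbol for their known roles and with earlier results of these data known, are described here. They are 5 genes of the ULK complex, 6 of the class III PI3-kinase complex, 6 of membrane supply, 7 of the conjugation machinery, 4 ATG4 proteases, 5 ATG8 proteins, 4 receptors and 3 factors of the MiT/TFE family. All 40 were found by symbol among 55536 annotated genes, of which 22028 were protein-coding.

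The cells were macrophages grown from the bone marrow of C57BL/6J mice (bone-marrow-derived macrophages, BMDM), kept with 100 ng/ml lipid A for 12 h, washed free of it for 12 h and then given 100 ng/ml lipid A again for 480 min. Lipid A is the part of bacterial lipopolysaccharide sensed by Toll-like receptor 4. The treatment field of the labels names lipoprotein A instead, and lipid A is written here after the description. Polyadenylated RNA of 3 libraries, replicates 1, 2 and 3, was sequenced. All 3 carry the same labels and form 1 group, so no effect of the treatment can be given. The labels number them as biological replicates, but give all of them the same donor record and do not say whether they came from separate animals or cultures, so the spread between them may be technical. In such bulk libraries, fewer cells that express a gene and less of its RNA per cell cannot be told apart.

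The libraries held 24596382, 54016971 and 43127749 expected counts in replicates 1, 2 and 3. Levels are TPM, transcript abundances scaled by transcript length and library total, from the first of 2 deposited quantifications unless the second is named. Replicate 2 stood apart from the other libraries. Messenger RNAs of the mitochondrial genome took 6.86% of its counts, against 1.06% in replicate 1 and 1.13% in replicate 3. Across 10350 protein-coding genes with at least 1 TPM in at least 1 library (called detected below), Pearson's r of log2(TPM + 1) was 0.98 between replicates 1 and 3, 0.92 between 1 and 2, and 0.92 between 2 and 3. Genes are not independent replicates, and these values are descriptions. All 7 macrophage markers looked up had at least 1 TPM in every library, with summed levels of 13381 to 16223 TPM. Of 24 markers of other blood and stromal cells, 7 had no count, and the summed level ranged from 3.38 to 9.98 TPM. The highest of them were Pecam1 and Cdh5 with means of 2.51 and 2.21 TPM. Pecam1 had 2.20, 2.49 and 2.85 TPM in replicates 1, 2 and 3, whereas Cdh5 had 0.36, 5.82 and 0.45 TPM. The defining T-cell and neutrophil markers Cd3e and Ly6g were at or near 0.

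Sequence before the members' transcription starts was taken from RefSeq windows on GRCm38.p6, the coordinates of mm10, which run from 250 bases before a start to 50 bases after it. For 34 members there were 44 windows. The E-box CACGTG, which reads the same on both strands and is the core of the sites that TFEB family proteins bind, stood in 4 of these windows, those of Atg3, Atg5, Atg7 and Atg14. Over all 32851 windows of the table, 7.15% held it. The longer form TCACGTGA, which also reads the same on both strands and contains CACGTG, was in the Atg3 window alone among the members' windows, and in 0.974% of all windows. The antioxidant element TGACNNNGC, searched on both strands, was in 7 of the 44 windows (15.9%) and in 12.4% of all windows. The 7 windows belong to 5 members (Atg13, Map1lc3b, Mitf, Ulk2 and Vmp1). In Mitf it lay in 1 window only. Transcript models that began within 500 bases of that start had 0 TPM in every library of the first quantification. The AP-1 element TGANTCA, searched on both strands, was in a window of Tfe3 alone among the members and in 7.81% of all windows. A match is a run of letters and not a measured binding site.

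The 3 E-box windows next to starts that carried the members' RNA are shown first, 5′ to 3′, with CACGTG in capitals. That of Sqstm1, the highest member, follows and holds none of the 4 motifs. Last come the windows of Mitf that precede the pair of starts in use in these cells. They lie at chr16:45158579-45158878 (plus strand) for Atg3, chr10:44268089-44268388 (plus strand) for Atg5, chr14:47568385-47568684 (minus strand) for Atg14 and chr11:50210771-50211070 (minus strand) for Sqstm1. Those of Mitf lie at chr6:97806808-97807107 and chr6:97991533-97991832 (plus strand).
Atg3: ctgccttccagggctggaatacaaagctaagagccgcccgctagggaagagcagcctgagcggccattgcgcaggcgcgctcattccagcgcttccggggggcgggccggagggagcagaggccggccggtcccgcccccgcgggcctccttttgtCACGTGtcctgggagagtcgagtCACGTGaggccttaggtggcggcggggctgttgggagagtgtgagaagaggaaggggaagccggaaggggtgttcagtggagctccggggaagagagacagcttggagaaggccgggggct
Atg5: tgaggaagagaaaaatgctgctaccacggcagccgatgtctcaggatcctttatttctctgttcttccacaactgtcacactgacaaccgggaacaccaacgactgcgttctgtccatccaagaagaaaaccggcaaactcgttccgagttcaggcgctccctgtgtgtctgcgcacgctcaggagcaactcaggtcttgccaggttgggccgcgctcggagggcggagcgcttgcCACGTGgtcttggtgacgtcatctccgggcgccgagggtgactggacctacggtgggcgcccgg
Atg14: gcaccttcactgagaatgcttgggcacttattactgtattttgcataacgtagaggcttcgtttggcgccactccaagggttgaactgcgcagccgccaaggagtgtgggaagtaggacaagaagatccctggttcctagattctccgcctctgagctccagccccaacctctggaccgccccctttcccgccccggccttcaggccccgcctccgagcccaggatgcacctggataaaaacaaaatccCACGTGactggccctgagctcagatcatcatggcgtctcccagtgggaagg
Sqstm1: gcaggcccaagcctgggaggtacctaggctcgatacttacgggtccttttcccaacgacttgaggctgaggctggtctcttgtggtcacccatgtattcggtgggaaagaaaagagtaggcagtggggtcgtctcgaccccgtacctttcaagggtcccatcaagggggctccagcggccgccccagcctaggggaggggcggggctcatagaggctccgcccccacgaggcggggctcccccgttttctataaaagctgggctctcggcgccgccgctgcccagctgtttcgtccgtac
Mitf, upstream start: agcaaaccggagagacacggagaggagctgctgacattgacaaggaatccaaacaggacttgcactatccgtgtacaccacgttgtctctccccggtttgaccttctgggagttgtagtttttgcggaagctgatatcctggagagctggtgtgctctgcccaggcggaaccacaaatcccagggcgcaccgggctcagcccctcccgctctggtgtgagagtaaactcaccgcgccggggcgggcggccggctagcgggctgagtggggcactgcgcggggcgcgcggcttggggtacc
Mitf, downstream start: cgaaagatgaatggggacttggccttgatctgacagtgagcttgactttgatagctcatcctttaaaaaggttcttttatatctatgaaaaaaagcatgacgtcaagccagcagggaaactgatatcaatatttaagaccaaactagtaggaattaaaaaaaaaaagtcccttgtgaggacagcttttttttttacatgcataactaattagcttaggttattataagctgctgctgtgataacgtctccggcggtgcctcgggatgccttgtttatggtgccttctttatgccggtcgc
In Atg3 the E-boxes began 94 and 71 bases before the start, and in Atg5 the E-box began 14 bases before it. In Atg14 it began 1 base before the start and so spanned it. Transcript models that began within 500 bases of these starts carried 99.5% of Atg3's TPM, 100.0% of Atg5's and 99.5% of Atg14's, as means of 3 libraries. No model of Atg7 began within 500 bases of its RefSeq start, so its window is not shown.

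The members were expressed in these cells. Of 40 members, 39 had at least 1 TPM in every library, whereas 42.9% of all 22028 protein-coding genes did. The exception was Atg16l2, a paralog of the ATG16L1 scaffold, with 3.06, 0.88 and 1.08 TPM in replicates 1, 2 and 3. A mean of at least 10 TPM was reached by 32 of 40 members (60.6% of detected genes) and a mean of at least 100 TPM by 3 of 40 (12.1% of detected genes). The median of their mean levels was 17.3 TPM, beside 15.1 TPM over the detected genes. On the log2(TPM + 1) scale, the members' median was 0.19 above that of detected genes. The same difference taken within each library was 0.26, 0.43 and 0.27 in replicates 1, 2 and 3, with an SD of 0.09. The members' median thus lay close to that of the detected genes.

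**Figure D1:**
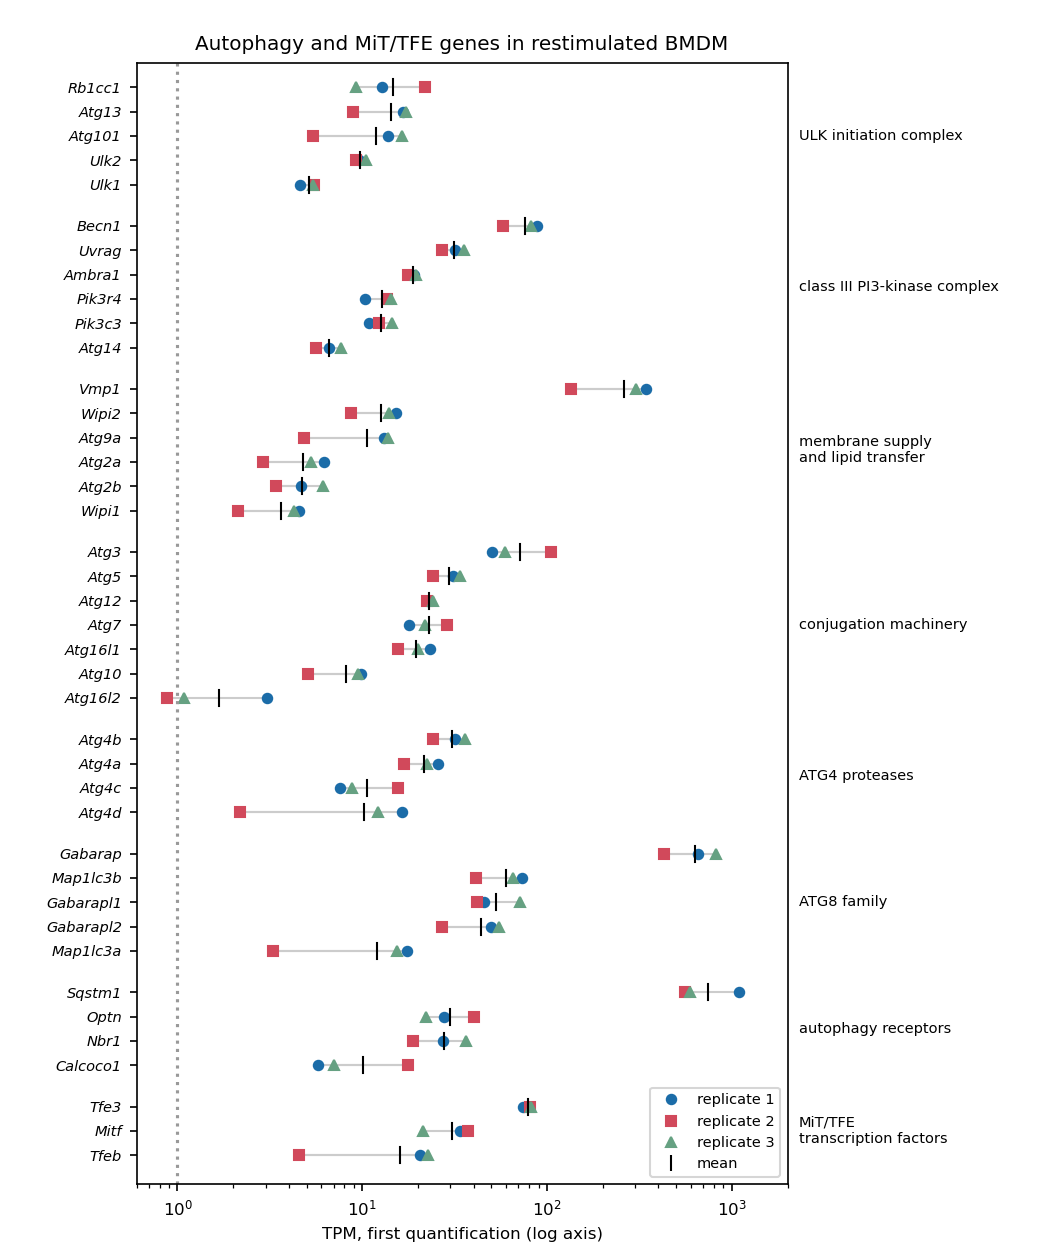
TPM of the 40 members (rows, ordered by mean within each role) on a log axis in 3 libraries, with the mean as a vertical line and 1 TPM dotted. Sqstm1, Gabarap and Vmp1 lie above 100 TPM in every library, Atg16l2 is the lowest, and replicate 2 lies left of the other libraries for 29 members.

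Sqstm1, Gabarap and Vmp1 led. Sqstm1, which encodes the receptor p62, had 1093, 559 and 590 TPM in replicates 1, 2 and 3, a mean of 747 ± 299.6 (SD, n = 3). Gabarap, an ATG8 protein, had 654, 431 and 817 TPM (634 ± 194), and its libraries overlapped with those of Sqstm1. Vmp1, a membrane protein of the endoplasmic reticulum needed to form autophagosomes, had 343, 135 and 304 TPM (261 ± 111), below Gabarap in every library. By mean level, Sqstm1 exceeded 98.5% of detected genes, Gabarap 98.2% and Vmp1 94.8%. In the order of all 40 members by mean TPM, only 3 of 39 neighbouring pairs had libraries that did not overlap. They were Gabarap over Vmp1, Vmp1 over Tfe3 and Atg14 over Ulk1. In the second quantification the libraries of Atg14 and Ulk1 did overlap. Atg14 had 4.33, 5.87 and 6.52 TPM there, and Ulk1 had 3.44, 7.03 and 5.01 TPM. The libraries of all other neighbours overlapped. Compared within each library, 7 of the 39 pairs, these 3 among them, had the same order in every library.

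Among the ULK initiation complex, which starts autophagy when nutrients are short, means ran from 5.18 to 14.7 TPM. Rb1cc1, which encodes the scaffold FIP200, had 12.8, 22.0 and 9.29 TPM in replicates 1, 2 and 3. Atg13, the adaptor between the kinase and the scaffold, had 16.6, 8.94 and 17.2 TPM, and Atg101, its stabilising partner, had 13.8, 5.43 and 16.4 TPM. In replicate 2 the scaffold was thus above, and both adaptors below, their levels in the other libraries. Ulk2 and Ulk1 encode the kinases themselves. Ulk2 had 9.61, 9.28 and 10.4 TPM, and Ulk1 had 4.63, 5.48 and 5.42 TPM. Their coefficients of variation were 6.06% and 9.16% in the first quantification, and 18.2% and 34.8% in the second. Within each library Ulk1 was below Ulk2, by a log2 ratio of -0.91 ± 0.15 (SD, n = 3).

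Ratios of this kind were taken for 26 pairs of members within each library, as log2 of TPM + 0.1. A pair is called separated here when the ratio had 1 sign in all libraries and its mean exceeded 3 SD. So judged, 12 of 26 pairs were separated, while 55.4% of all 53556075 pairs of detected genes were. The share is a background for related genes and gives no support for or against any pair. The rule is no test: with 3 libraries, the smallest two-sided p that an exact sign-flip permutation can give is 0.25.

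**Figure D2:**
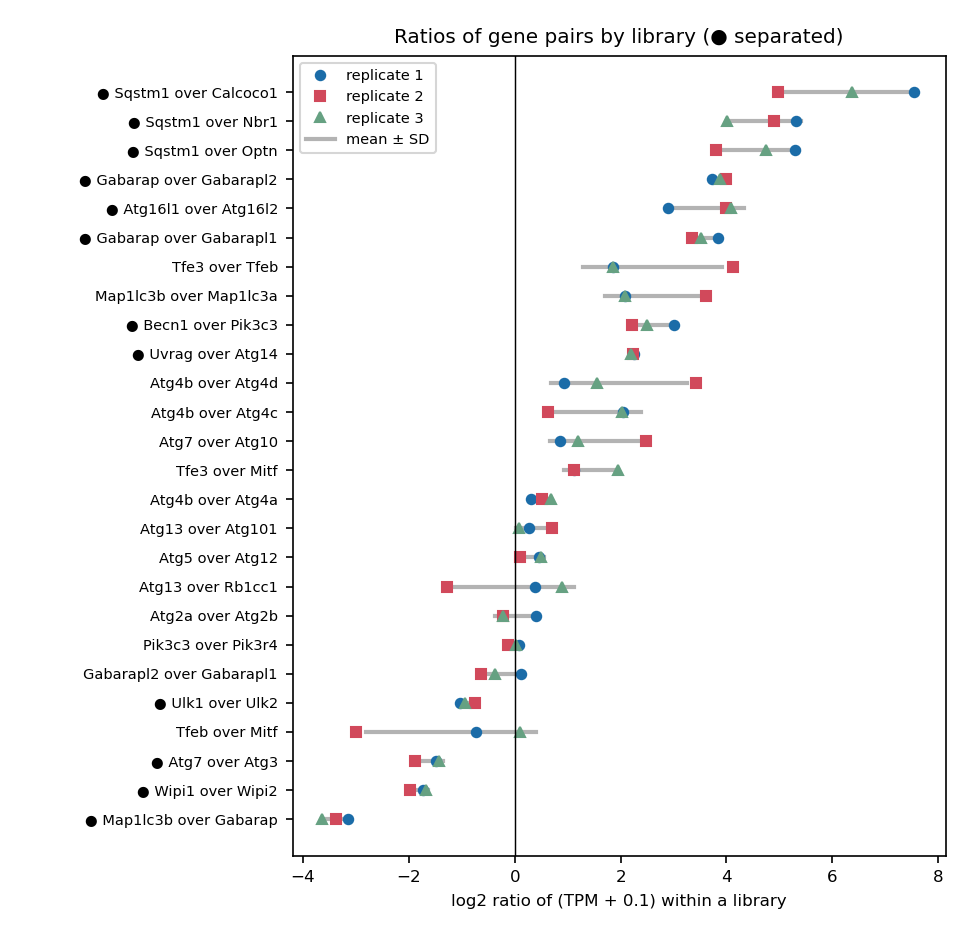
Log2 ratios of TPM + 0.1 between 26 pairs of members (rows) in 3 libraries, first quantification, with the mean ± SD as a grey bar and separated pairs marked by a dot. Uvrag over Atg14 and Gabarap over Gabarapl2 are tight in all 3 libraries, while Tfeb over Mitf and Atg13 over Rb1cc1 cross 0.

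The class III PI3-kinase complex marks the growing membrane with phosphatidylinositol 3-phosphate. Becn1, which encodes its scaffold Beclin 1, had 88.7, 57.5 and 82.2 TPM in replicates 1, 2 and 3 and was the highest of the 6 genes over all transcript models. Its coding models alone had 11.9, 3.68 and 13.3 TPM, against 10.5, 11.9 and 14.5 TPM for those of Pik3c3. The catalytic Pik3c3 (VPS34) had 10.9, 12.4 and 14.5 TPM and the regulatory Pik3r4 (VPS15) 10.3, 13.6 and 14.3 TPM. These partners of the catalytic core had a log2 ratio of -0.01 ± 0.11, so neither was above the other beyond the spread, and Becn1 exceeded Pik3c3 by 2.57 ± 0.41 over all models, a lead that did not hold for the coding models. Uvrag and Atg14 encode alternative subunits, the first for late and endosomal steps and the other for autophagosome formation. Uvrag had 31.6, 26.9 and 35.4 TPM, and Atg14 had 6.57, 5.65 and 7.66 TPM. Uvrag over Atg14 was a log2 ratio of 2.25, 2.23 and 2.19, or 4.67-fold on average with an SD of 0.03. The second quantification gave 2.83 ± 0.26, or 7.11-fold, so the size and tightness of this ratio depend on the quantification. Ambra1, a Beclin 1 partner and activator, had 19.1, 17.8 and 19.5 TPM.

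In the membrane group, apart from Vmp1, the levels were low. Atg9a, the scramblase that travels in vesicles to the forming membrane, had 13.2, 4.85 and 13.7 TPM in replicates 1, 2 and 3. The lipid-transfer proteins of ATG2 were encoded by Atg2a with 6.24, 2.90 and 5.26 TPM and Atg2b with 4.68, 3.40 and 6.12 TPM, and neither was above the other in all libraries. The WIPI proteins bind phosphatidylinositol 3-phosphate. Wipi2, which recruits ATG16L1, had 15.2, 8.70 and 13.9 TPM, and Wipi1 had 4.53, 2.13 and 4.27 TPM. Wipi1 was below Wipi2 in every library, by a log2 ratio of -1.80 ± 0.16. Atg9a, Atg2a, Atg2b, Wipi1, Wipi2 and Vmp1 all had their lowest level in replicate 2.

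The conjugation machinery resembles ubiquitination, with ATG7 as the E1-like enzyme, ATG3 and ATG10 as E2-like enzymes and an ATG12, ATG5 and ATG16L1 complex in the E3-like place. Atg3 was its most abundant member, with 50.5, 105 and 59.1 TPM in replicates 1, 2 and 3. Atg7 had 17.9, 28.6 and 21.9 TPM and Atg10 had 9.81, 5.07 and 9.53 TPM. Replicate 2 was thus the highest library for Atg3 and Atg7 and the lowest for Atg10. Atg7 was below Atg3 in every library, by a log2 ratio of -1.60 ± 0.24. Atg12, the ubiquitin-like protein joined to ATG5, had 22.7, 22.3 and 24.1 TPM. Its coefficient of variation was 4.07% in the first quantification and 19.7% in the second. Atg5 had 31.0, 24.0 and 33.8 TPM and Atg16l1 had 23.3, 15.6 and 20.0 TPM. Atg16l1 exceeded Atg16l2 by a log2 ratio of 3.66 ± 0.67.

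The ATG4 proteases trim ATG8 proteins before conjugation and release them afterwards. Atg4b, the main protease of LC3, had 31.7, 24.2 and 35.8 TPM in replicates 1, 2 and 3, and Atg4a had 25.7, 16.9 and 22.3 TPM. Over all models Atg4b was above Atg4a in each library by a log2 ratio of 0.50 ± 0.19, which did not pass 3 SD. Coding models alone had 20.1, 17.1 and 25.4 TPM for Atg4b and 24.3, 16.4 and 21.8 TPM for Atg4a. Their order was thus reversed in replicate 1. In the second quantification the coding models of Atg4b were above those of Atg4a in each library. Over all transcript models, the other paralogs stood in a different order in replicate 2. Atg4d had 16.5, 2.17 and 12.2 TPM, and Atg4c had 7.57, 15.5 and 8.76 TPM. Atg4d made up 20.2% and 15.4% of the family's TPM in replicates 1 and 3 and 3.69% in replicate 2. Atg4c made up 9.30% and 11.1%, and 26.4% in replicate 2. The change of order did not hold for coding models alone. Those had 2.24, 0.44 and 1.95 TPM for Atg4d and 7.56, 15.5 and 8.76 TPM for Atg4c. Judged by coding models, Atg4c was above Atg4d in every library in both quantifications.

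Among ATG8 proteins, Gabarap made up 78.9 ± 0.96% (SD, n = 3) of the family's TPM, with 77.9%, 79.1% and 79.7% in replicates 1, 2 and 3. The second quantification gave 74.8 ± 2.53%. Map1lc3b, which encodes the LC3B protein used to count autophagosomes, had 73.5, 41.4 and 65.6 TPM. Gabarapl1 had 45.8, 42.0 and 71.3 TPM and Gabarapl2 (GATE-16) 49.4, 26.9 and 55.3 TPM. Map1lc3b lay below Gabarap by a log2 ratio of -3.39 ± 0.24, and Gabarap exceeded Gabarapl1 by 3.57 ± 0.24 and Gabarapl2 by 3.87 ± 0.14. The order of Gabarapl1 and Gabarapl2 differed between libraries. Map1lc3a, the LC3A gene, had 17.4, 3.29 and 15.4 TPM, and was the lowest of the 5 in each library. Thus GABARAP-type RNA was far more abundant than LC3-type RNA in all 3 libraries. Gm20388, an annotated gene on the same strand that spans Map1lc3b, had a mean of 17.02 TPM, so the split of reads between them is uncertain.

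Sqstm1 also made up most of its group. Among the receptors, which tie cargo to ATG8, it took 90.9 ± 3.48% of the TPM (SD, n = 3). Nbr1, a related ubiquitin receptor, had 27.3, 18.7 and 36.5 TPM, and Optn, which encodes optineurin, a receptor for damaged mitochondria and bacteria, had 27.7, 40.2 and 22.0 TPM. Calcoco1, an endoplasmic reticulum receptor, had 5.75, 17.6 and 7.06 TPM. It was the only member whose TPM in replicate 2 was more than 2 times that of both other libraries, which held for 4.58% of detected genes. Sqstm1 over Nbr1 was a log2 ratio of 4.74 ± 0.67, over Optn 4.61 ± 0.76 and over Calcoco1 6.30 ± 1.28. The last, 78.6-fold, was 124-fold without replicate 2 and 50.97-fold without replicate 1. With CPM, which is not scaled by length, Sqstm1 over Optn was 3.86 ± 1.43 and no longer separated.

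In the MiT/TFE family Tfe3 led, with 74.2, 80.7 and 82.3 TPM in replicates 1, 2 and 3. The coefficient of variation of Tfe3 was 5.45% in the first quantification and 27.0% in the second, where it had 49.1, 86.1 and 74.1 TPM. Mitf had 33.9, 37.1 and 21.3 TPM. Tfeb, the best known regulator of lysosome genes, had 20.5, 4.54 and 22.8 TPM. Tfe3 made up 57.7%, 65.96% and 65.1% of the family's TPM. It was above Mitf and Tfeb in every library, by log2 ratios of 1.40 ± 0.48 and 2.61 ± 1.31, neither of which passed 3 SD. Without replicate 2, Tfe3 over Tfeb was 1.85 in both libraries and separated. Tfeb over Mitf had no constant sign, with log2 ratios of -0.72, -3.00 and 0.10.

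Replicate 2 was the lowest library for 29 of 40 members and the highest for 8. Over the detected genes it was the lowest for 58.4% and the highest for 27.1%. For 7 members (Atg4d, Atg9a, Atg101, Map1lc3a, Wipi1, Tfeb and Vmp1) its TPM was under 50% of both other libraries, and 19.1% of detected genes shared that. The mean of replicates 1 and 3 over replicate 2 was 6.59-fold for Atg4d, 4.98-fold for Map1lc3a and 4.76-fold for Tfeb. After centring each library on its detected genes, the members' median deviation from the gene mean of log2(TPM + 1) was 0.03, -0.11 and 0.03 in replicates 1, 2 and 3. Their middle 50% ran from -0.32 to 0.20 in replicate 2, beside -0.33 to 0.32 for the detected genes. The members as a whole therefore kept about the level of other genes in replicate 2, and single members lay far to either side.

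The GC content of the transcripts moved with these deviations. Across 10339 detected genes with a GC value, Spearman's rho between GC content and the deviation was -0.44 in replicate 2, beside 0.27 in replicate 1 and 0.42 in replicate 3. Across the 40 members it was -0.37 in replicate 2. Tfeb, Map1lc3a and Atg4d, low in replicate 2, were at 62.5%, 61.8% and 58.4% GC. Rb1cc1 and Atg4c at 38.3% and 42.3% GC were among the members high in replicate 2. Other members went against this trend. Ulk1 and Tfe3 at 57.4% and 57.1% GC had deviations of 0.27 and 0.23 in replicate 2. Atg10 and Vmp1 at 40.7% and 43.4% GC had -0.34 and -0.63 there. These values share libraries and are descriptions. With a smooth curve over GC content removed from each library, a step chosen after seeing the data, the deviation in replicate 2 was -0.56 for Tfeb (before, -1.15), -0.58 for Map1lc3a (-1.15) and -0.90 for Atg4d (-1.31). That of Calcoco1 was 1.31 (before, 1.09) and that of Vmp1 was -0.84 (-0.63). Transcript length moved with the deviations as well. Across the detected genes, its rho was 0.25 in replicate 2, beside -0.08 in replicate 1 and -0.30 in replicate 3. Across the 40 members it was 0.40 in replicate 2. After the GC correction these values for replicate 2 were 0.16 and 0.38. The share of mitochondrial messenger RNA differed in the same library. The part of length or of that share in these deviations was not tested.

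**Figure D3:**
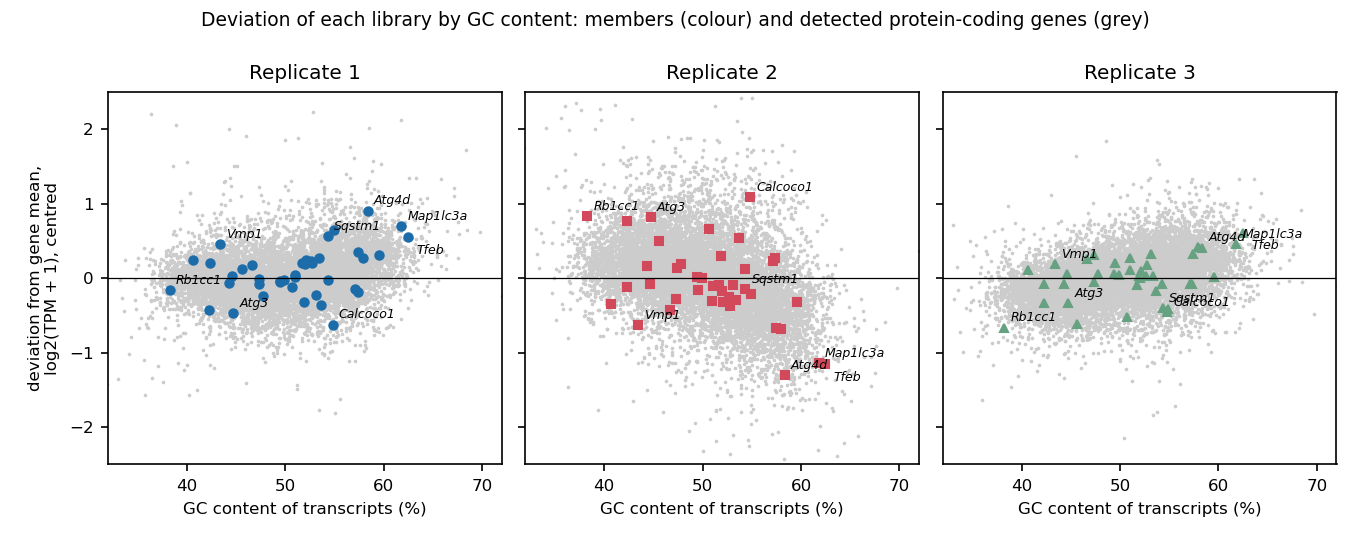
Deviation of log2(TPM + 1) from the gene's mean over 3 libraries, centred on detected genes, against the GC content of the gene's transcripts, for members (colour) and detected protein-coding genes (grey) in each library. In replicate 2 Tfeb, Map1lc3a and Atg4d lie at the lower right, Rb1cc1 and Atg3 at the upper left and Vmp1 at the lower left. Of the grey genes, 20 of 10339 have a point outside the axes.

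The spread between libraries was tested gene by gene. A chi-square test of counting noise, with Benjamini-Hochberg adjustment, called 38 of 40 members as more variable than counting allows, and 87.9% of 11932 tested genes. The exceptions were Atg5 and Pik3r4, whose adjusted p was 0.950 and 0.066. Without replicate 2 it called 24 of 40 members and 55% of genes. Against the usual spread of genes of like abundance (edgeR's quasi-likelihood fit, one-sided F test), 0 of 40 members and 0 of 11932 genes had excess spread after adjustment (0% called). At an unadjusted p under 0.05 there were 503 genes (4.22%) and 1 member. That member was Atg4d, with an adjusted p of 0.933 in edgeR. With GC correction no member was under that unadjusted threshold, and the adjusted p of Atg4d in edgeR was 0.963. DESeq2's outlier rule on dispersion named 17 genes and none of the members. Without replicate 2, edgeR gave 7 genes with excess spread over all genes and no member, and 2 members, Sqstm1 and Mitf, were under the unadjusted threshold, with adjusted p of 0.445 and 0.727 in edgeR. The members' coefficient of variation had a median of 30.3%, beside 29.1% over detected genes.

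The transcript models gave more detail for Sqstm1. The coding model Sqstm1-202, which spans chr11:50200152-50210827 on the minus strand, had 1004, 126 and 551 TPM in replicates 1, 2 and 3. The short retained-intron model Sqstm1-206 (chr11:50202443-50203118) had 9.89, 215 and 1.87 TPM, and the retained-intron model Sqstm1-203 (chr11:50202312-50206100) had 15.3, 163 and 2.01 TPM. In replicate 2 these internal models, 457 and 582 bases long, thus carried more TPM than the coding one. Retained-intron models held 2.72%, 67.8% and 0.93% of the gene's TPM in replicates 1, 2 and 3. The second quantification gave 7.74%, 69.0% and 2.60%. Models that began within 500 bases of the RefSeq start, whose window is shown above, carried 96.2%, 25.3% and 97.6% of the gene's TPM. The gene's expected counts were 32613, 16837 and 32425 in replicates 1, 2 and 3, the lowest in replicate 2, although that library was the deepest.

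Over all 40 members, retained-intron models held 4.99%, 25.2% and 4.09% of the summed TPM in replicates 1, 2 and 3, beside 3.82%, 6.09% and 3.70% for the detected genes. Without Sqstm1 the members' share was 6.30%, 7.58% and 4.999%, and 8.10%, 5.81% and 5.59% in the second quantification. Most of the high share of replicate 2 thus lay in Sqstm1. The coding share was lowest in replicate 2 in 14 members and highest there in 14, and in 13 and 16 members in the second quantification. Among the low ones were Gabarapl2, Atg16l1 and Ambra1, and among the high ones Atg2b, Map1lc3a and Vmp1. The coding share of Gabarapl2 was 72.5%, 39.6% and 82.2% in replicates 1, 2 and 3, and 53.2%, 34.0% and 58.2% in the second quantification. The coding share of Ambra1 was 100%, 67.8% and 100%, and 100%, 60.2% and 98.1% in the second quantification. That of Atg16l1 was 87.7%, 52.2% and 93.7%, and its retained-intron model Atg16l1-208 had 5.53 TPM in replicate 2 and 0 in the other libraries. In the second quantification Atg16l1-208 had 1.04, 7.61 and 0.61 TPM, again with replicate 2 the highest.

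Much of the TPM of Vmp1 sat in short models towards its 3′ end. The full-length coding model Vmp1-201 had 72.2, 69.0 and 68.0 TPM in replicates 1, 2 and 3, and 47.0, 69.3 and 58.6 TPM in the second quantification. In neither was replicate 2 far below the other libraries. The non-coding model Vmp1-206 (chr11:86585020-86586994, minus strand) had 137, 24.9 and 81.7 TPM. Vmp1-202, also non-coding, had 69.3, 2.41 and 81.9 TPM. The non-coding models summed to 235, 54.2 and 202 TPM and the coding ones to 108, 80.98 and 102 TPM, so most of the lower level in replicate 2 was in non-coding models. They held 68.5%, 40.1% and 66.6% of the gene's TPM, and the second quantification gave 69.5%, 41.7% and 67.3%. The gene for the microRNA miR-21, Mir21a, lies within the span of Vmp1-201 on the same strand at chr11:86584067-86584158. It is downstream of the ends of Vmp1-206 and Vmp1-202 and was listed at 0 TPM in all 3 libraries. The entry covers only that span and the libraries were of polyadenylated RNA, so the 0 does not show that miR-21 was absent. Its mature strand from RefSeq, at chr11:86584120-86584141, is shown to place it, with its seed (bases 2 to 8) in capitals.
mmu-miR-21a-5p: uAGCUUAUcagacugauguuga
In human cells primary miR-21 transcripts are known to run from within VMP1 through this hairpin, and the short models cannot be assigned to either transcript here.

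Other members had models of their own in replicate 2. Gabarap-201 had 369, 391 and 471 TPM in replicates 1, 2 and 3, and Gabarap-202 had 254, 0 and 301 TPM. The second quantification gave 272, 419 and 496 TPM for Gabarap-201 and 129, 0 and 144 TPM for Gabarap-202. Thus Gabarap-201 was not lower in replicate 2 than in replicate 1 in either quantification, although the gene was in the first. In the second the gene had 410, 420 and 644 TPM in replicates 1, 2 and 3. Atg7-201, the long coding model, had 13.0, 8.50 and 13.9 TPM, and the short Atg7-204 of 758 bases had 0.71, 18.6 and 0.86 TPM. Tfe3-214, a coding model of 408 bases, had 13.0, 38.5 and 14.4 TPM. Calcoco1-203, of 1095 bases, had 0.26, 12.8 and 0 TPM, beside 5.23, 4.75 and 6.87 TPM for the longer Calcoco1-201. The high levels of Atg7 and Calcoco1 in replicate 2 sat in shorter models. Ambra1-203 had 0 TPM in replicate 2 in both quantifications, against 9.67 and 8.56 TPM in replicates 1 and 3 of the first. Rb1cc1-212, a coding model, had 2.66, 7.96 and 2.46 TPM, and Rb1cc1-214, annotated for nonsense-mediated decay, had 3.52, 10.5 and 2.51 TPM.

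**Figure D4:**
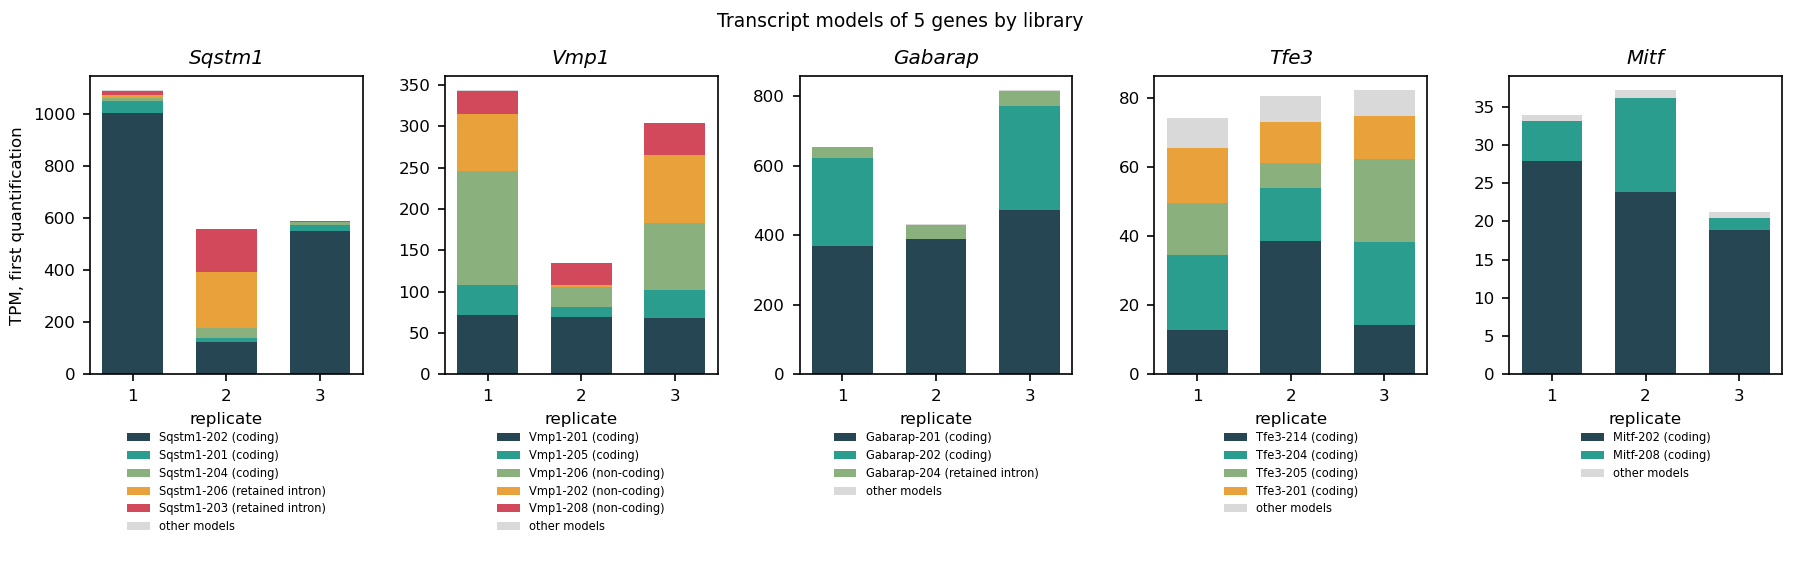
Stacked TPM of transcript models of Sqstm1, Vmp1, Gabarap, Tfe3 and Mitf in 3 libraries, first quantification, with the annotated type of each model in the legend. Retained-intron models fill most of the Sqstm1 bar in replicate 2 alone, the Vmp1-201 segment is of like height in all libraries, and Gabarap-202 is missing in replicate 2.

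The model with the most TPM in replicate 2 differed from the one shared by replicates 1 and 3 in 11 of 40 members, and in 21.1% of 9233 genes with more than 1 model and a mean of at least 1 TPM. In the second quantification it was 10 of 40 members and 22.4% of genes. In 8 members (Atg2a, Atg7, Atg9a, Ambra1, Gabarapl2, Sqstm1, Calcoco1 and Tfe3) both quantifications showed it, as in 14.6% of genes. Averaged over libraries, both quantifications named the same leading model for 35 of 40 members, beside 89.2% of 10003 genes. Those that differed were Atg2a, Atg2b, Atg4b, Atg16l2 and Wipi2.

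In Atg4d and Becn1, coding models held a minority of the TPM in every library and in both quantifications, as in 3.55% of detected genes. For Becn1 the coding share was 13.4%, 6.40% and 16.2% in replicates 1, 2 and 3. Its leading models were Becn1-201, annotated for nonsense-mediated decay, with 27.2, 26.8 and 33.5 TPM, and the retained-intron model Becn1-211 with 29.1, 17.9 and 13.3 TPM. For Atg4d the coding share was 13.6%, 20.3% and 16.05%, and the retained-intron model Atg4d-203 had 9.59, 1.29 and 7.34 TPM. The low level of Atg4d in replicate 2 was thus shared by its coding model Atg4d-201, with 2.24, 0.44 and 1.95 TPM. The 3′ end of Atg4d overlaps Kri1 on the other strand, whose mean was 30.5 TPM, and Atg4b, Atg2b, Atg9a and Atg16l2 also overlap a gene on the other strand with at least 1 TPM (Thap4, Gskip, Ankzf1 and Fchsd2). Whether counting used the strand is not given in the sources used here, so reads in these overlaps cannot be told apart.

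The factors of the MiT/TFE family have several starts. For Mitf the most upstream start, whose window is shown above, had models within 500 bases that carried 84.6%, 66.5% and 92.4% of the TPM in replicates 1, 2 and 3. The downstream start, shown with it, had 15.4%, 33.1% and 7.62%. In the second quantification the downstream share was 12.0%, 20.0% and 2.63%. It was largest in replicate 2 and smallest in replicate 3 in both. The upstream model Mitf-202 had 27.9, 23.9 and 18.9 TPM and the downstream model Mitf-208 had 5.22, 12.2 and 1.62 TPM. For Tfeb, models at the start at 47737037 on chromosome 17 carried 51.7%, 66.7% and 61.1% of the TPM and those at the start at 47785744 carried 40.8%, 28.9% and 36.7%. The second quantification gave the downstream start less, 20.4%, 22.3% and 10.9%. Tfeb-202 from the upstream start had 10.6, 3.03 and 13.9 TPM, and Tfeb-212 from the downstream one had 8.37, 0 and 8.12 TPM, so both were low in replicate 2. For Tfe3, the start at 7763943 on the X chromosome carried 67.1%, 76.9% and 75.7%.

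The second quantification, made from the same reads, was close for the members. The median of its difference from the first on log2(TPM + 1), second minus first, was -0.14 over the members. Over 10203 genes tested it was -0.14 as well. Without replicate 1 this median was -0.01 over the members and -0.01 over the genes, and without replicate 2 it was -0.25 and -0.25. Without replicate 3 it was -0.16 and -0.17, so the offset lay mostly in replicate 1. Limma was used with a threshold of an adjusted p under 0.05 and a difference of at least 1. The second quantification then differed in 0 of 40 members and in 1.66% of genes. This fit pooled the variance over all genes. Each member thus had the same standard error of 0.18, and its own spread had no part in these p-values. At an unadjusted p under 0.05 limma gave 6.08% of genes and 2 members, Pik3r4 with a difference of -0.43 (adjusted p = 0.386) and Atg2b with -0.41 (adjusted p = 0.459). The highest difference was that of Uvrag, 0.34 (adjusted p = 0.743 in limma). In Uvrag the coding share was 90.1%, 80.6% and 95.4% in the first quantification, against 24.5%, 40.1% and 33.8% in the second, so its coding level depends on the quantification.

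Genes around the pathway were read from 6 lists, of which none held a gene with excess spread after adjustment in edgeR. Among 28 upstream regulators, which sense amino acids, growth factors and energy, 25 had at least 1 TPM in every library and the median mean level was 22.99 TPM. The highest were Lamtor1 (237 ± 24.3 TPM, SD, n = 3) and Lamtor5 (165 ± 60.4), subunits of the Ragulator that anchors mTORC1 to the lysosome, and Rragc (148 ± 18.9), a Rag GTPase. The lowest was Prkaa2, an AMPK catalytic subunit, with 0.04 TPM and 21 counts in all libraries together. Among 17 other receptors and adaptors, 16 passed 1 TPM in every library. They were led by Ncoa4, the ferritin receptor, with 133 ± 33.8 TPM, Tax1bp1, a ubiquitin receptor, with 125 ± 24.4 TPM, and Tbk1, the kinase that phosphorylates optineurin, with 111 ± 37.5 TPM. Calcoco2, the symbol of the human receptor NDP52, was listed at 0 counts in all 3 libraries.

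Of 11 other phagophore genes, 10 had at least 1 TPM in every library. The highest were Sh3glb1, a membrane-curving partner of UVRAG, with 339 ± 48.3 TPM, Wdr45b, a WIPI-family protein, with 47.3 ± 21.5 TPM, and Tmem41b, a partner of VMP1, with 37.9 ± 11.5 TPM. Atg9b, the paralog of Atg9a, was the lowest with 0.20, 0.18 and 1.06 TPM in replicates 1, 2 and 3. All 15 genes of fusion and its brake Rubicon passed 1 TPM in every library, at a median of 34.6 TPM. Rab7, the GTPase of late endosomes, had 306, 1074 and 353 TPM, Vamp8, a lysosomal SNARE, had 429 ± 100.6 TPM, Ykt6, an autophagosomal SNARE, had 59.8 ± 14.7 TPM, and the tether Epg5 was the lowest with 3.91 ± 1.18 TPM. Rab7 in replicate 2 was above both other libraries, the opposite of most members.

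The 31 lysosomal genes of the CLEAR network, the set named for the E-box sites of TFEB, all had at least 1 TPM in every library and had a median of 137 TPM. Psap (prosaposin) had 6756 ± 2128 TPM, and the cathepsins Ctsb and Ctsd had 6048 ± 2551 and 5304 ± 2075 TPM. Ctsf, a further cathepsin, was the lowest with 2.45 ± 0.81 TPM. On the log2(TPM + 1) scale their median was 3.10 above that of detected genes, compared with 0.19 for the members. In 24 of the 31 replicate 2 was the lowest library, beside 58.4% of detected genes. Of 14 immunity genes tied to autophagy, of which Map1lc3b is also a member, all passed 1 TPM in every library, at a median of 249.5 TPM. Gbp2, an interferon-induced GTPase, had 1273, 1311 and 1305 TPM, Rab7 came next, Irgm1, an immunity-related GTPase, had 533 ± 132 TPM, and the lowest was Nod2, a sensor of bacterial wall fragments, with 11.8 ± 3.77 TPM. The machinery of autophagy was thus near the middle of detected genes, while the lysosomal and immunity lists lay well above it. The lists were chosen by name, with earlier results of these data known, and not drawn at random. The differences between them were not tested.

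**Figure D5:**
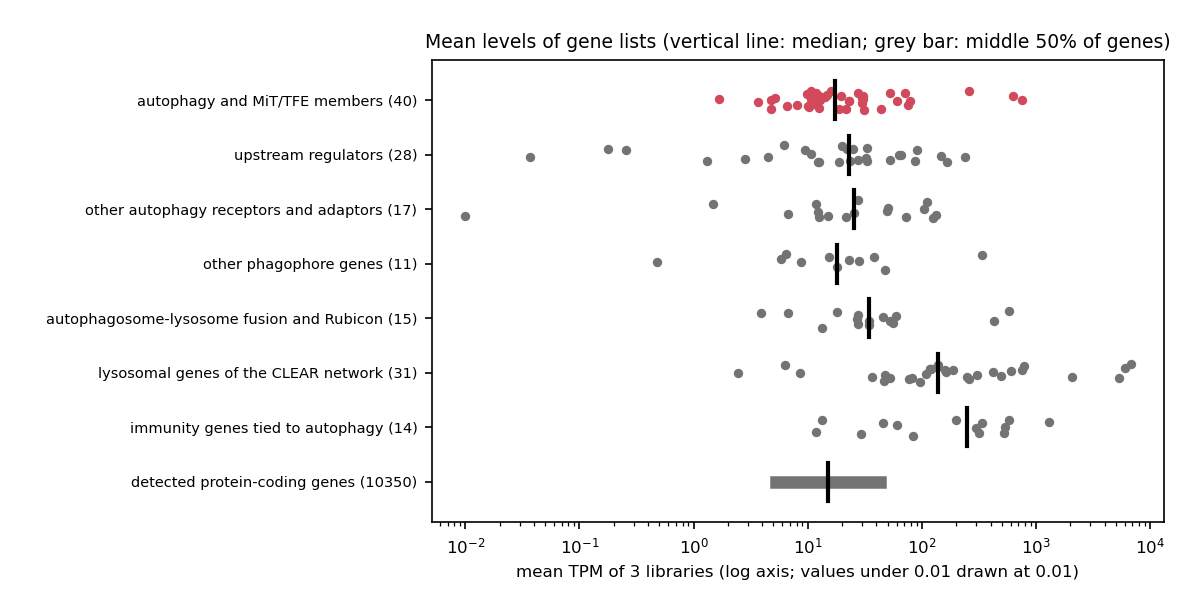
Mean TPM of 3 libraries on a log axis for each gene of the 40 members and of 6 other lists, with the median as a vertical line and the number of genes in brackets, and the middle 50% of 10350 detected protein-coding genes as a grey bar. The members' median of 17.3 TPM lies close to the 15.1 TPM of detected genes, and the medians of the lysosomal and immunity lists lie at 137 and 249.5 TPM.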

How the data were processed

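Polyadenylated RNA of 3 libraries was read from 2 quantifications per library. Both used mm10 and GENCODE M21, per the notes deposited with the files, and which tools made them is not given in the sources used here, nor is strandedness. The authors deposited expected counts (estimated counts in the second), in which reads shared between transcripts are split by a model, and TPM. The first also gives each transcript's percent of its gene's TPM, per the file headers. Gene values of the second are sums over transcripts. The 26345 entries that name no annotated gene (0.0464% to 0.0875% of counts) were left out of tests. Expected counts were rounded for tests. Precision was limited by 3 libraries, and a count of 0 is given as listed.

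Members and lists were chosen with earlier results of these data known. All members are named. Of each other list, the 3 highest genes and the lowest by mean TPM, and any gene called with excess spread, are named. Excess spread was tested with edgeR 4.0.16 (TMM, filterByExpr with a minimum count of 10, intercept design, residual variance against the trended prior), counting noise by chi-square on TMM-scaled totals, and the quantifications with limma 3.58.1 on paired log2 differences, each adjusted over all genes by Benjamini-Hochberg at 0.05. DESeq2 1.42.0 served as an alternative. Functions were tested on simulated data. GC content and length are means over a gene's M21 transcripts, weighted by TPM of the second quantification. GC correction subtracts a lowess curve with a span of 0.3. Start use counts models within 500 bases of a RefSeq start. The edgeR p-values set the spread between these libraries against that of other genes, and the chi-square ones set it against counting error. The limma p-values concern the mean difference between the quantifications. All of them concern these 3 libraries only.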

Additional observations from a re-analysis of the deposited data

How the results depend on the processing

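No paired analysis was possible because the 3 libraries form 1 group, so no replicate numbers can pair samples across groups (the limma differences pair the quantifications within a library). Without replicate 2, 24 members were beyond counting noise, and 21 with GC correction as well, against 38 with all libraries. Over the leave-one-out settings the count was 24 to 35, and 21 to 33 with GC correction. The GC correction was chosen after seeing the data. No member had excess spread or differed between the quantifications under any alternative run. Over all genes, those with excess spread numbered 0 in the main setting, 64 with no filter, 17 by DESeq2's outlier rule and 7 to 20 without 1 replicate. Genes beyond counting noise numbered 10491, and 6695 without replicate 2. Genes that differed between the quantifications numbered 169, 258 with a pseudocount of 0.1 TPM and 0 with no filter. The median level of the members above detected genes was 3.82 against all annotated protein-coding genes, 0.30 with means of log2 values in place of medians, and 0.34 in the second quantification, and leaving out each replicate gave 0.12 to 0.27. Separated pairs numbered 13 to 17 under the alternatives, with 12 in the main setting. With CPM in place of TPM, 5 further pairs separated, 2 no longer did (Sqstm1 over Optn and Atg7 over Atg3), and 7 of the 12 separated folds moved by over 1.5 times. With a pseudocount of 1 TPM, Atg16l1 over Atg16l2 was 8.10-fold, against 12.6-fold in the main setting. The members' median deviation kept its sign in each library under the alternatives run. Detection counts were 39 or 40 and shared leading models 30 to 37, the 30 being among 32 members whose mean reached 10 TPM. In the second quantification, the mean TPM of 7 members moved by more than the SD. With 3 libraries the tests see only large excesses, and a miss does not show that levels agree.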
